A study of Oryza sativa with 12 samples.

Results

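The 6 arrays compared here hold RNA from shoots and leaves of rice (Oryza sativa) seedlings at the 4-leaf stage after 6 h at 4 °C, 3 from lines in the ZH11 cultivar and 3 from lines in the Huayang cultivar, out of 12 arrays in the series. The members were taken from the cultivar and treatment labels alone. On the ZH11 side stood OE2 and OE28, which overexpress OsMYB30, a MYB transcription factor, and CK, the control line. On the Huayang side stood mutant1 and mutant2, both homozygous for an osmyb30 mutation, and WT, the wild type. The same 6 lines had also been sampled before cold, which gave 3 further arrays per cultivar. Seedlings had been grown in potting soil and then held at 4 °C in a growth chamber that gave 14 h of light and 10 h of dark a day. The promoter that drives the overexpression and the kind of mutation are not given in the sources used here, nor is the number of seedlings behind an array. Each line gave 1 array per time, so p-values measure the spread between lines, which includes OsMYB30 status, and nothing in the labels says that lines were grown apart. Because the ZH11 side holds the overexpressing lines and the Huayang side the mutants, cultivar and OsMYB30 status cannot be told apart in the comparison of 3 with 3, and CK was therefore also set against WT, the pair in which by the labels neither line carries either change.

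Cultivars of rice differ in growth, tolerance of cold and defence, and much of such difference lies in genes that are present, absent or altered in sequence between genomes, or that are transcribed at different rates. Cold arrests growth by changing the cell wall and hormone signalling. In rice shoots it also raises transcription factors of the DREB1 family, which switch on protective genes, and the JAZ repressors of the jasmonate pathway. An array probe set reads both the amount of a transcript and how well the sequence of the plant matches the probes, so that less transcript and a poorer match of sequence cannot be told apart in what follows. In whole shoots, fewer cells of a type and less RNA per cell likewise cannot be told apart.

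Each of the 12 arrays had a median intensity of 34.7 to 37.2. The largest component of variance held 45.8% and parted the times, and the next held 33% and parted the cultivars. After cold, the root mean square difference between arrays on the log2 scale was 0.195 to 0.2713 within a cultivar and 0.3839 to 0.4879 between cultivars. Light harvesting and photosystem genes summed to intensities of 75700.9 to 77235.6 in ZH11 and 74559.5 to 77018.1 in Huayang, and 0 of the 6 tested genes were dim (defined below) on all 6 arrays. Root genes summed to 986.6 to 1714.2 in ZH11 and 1326.8 to 5593.1 in Huayang, and 3 of the 8 tested were dim on all 6. Of the probe sets for transgene markers, RPTR-Os-K01193-1_at read 12316.2, 12539.4 and 64.3 in OE2, OE28 and CK and 14038.0, 17705.5 and 3821.8 in mutant1, mutant2 and WT after cold, and the WT array was thus far brighter there than CK, with 2658.5 before cold as well. OsMYB30 itself could not be paired with certainty with a probe set through the annotation used here. That annotation gives myb30 as a synonym of MYBS3. MYBS3 read 2177.0, 2155.8 and 2242.0 in OE2, OE28 and CK, and 2628.9, 2298.6 and 2455.2 in mutant1, mutant2 and WT. Whether MYBS3 is the gene changed in these lines was not tested, so the labels could not be checked on OsMYB30. Counts are given below without WT, for its signal at RPTR-Os-K01193-1_at, and without mutant1, which lay nearer to ZH11 at some probe sets.

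After cold, seedlings of ZH11 differed from those of Huayang at 3648 of 34316 tested probe sets, 10.6%, at a limma adjusted p below 0.05. The arrays of the cultivars did not overlap at 3634 of these calls, against 27.6% of all tested probe sets. Calls and overlap rest on the same arrays, so this is a description and no further check. Of the calls, 1639 were higher in ZH11 (4.78% of those tested) and 2009 lower (5.85%). At 95 the difference was at least 4-fold higher and at 111 at least 4-fold lower. The genes lower in ZH11 included ion and metal transporters, chitinases and enzymes of oxylipin synthesis, whereas those higher in ZH11 included expansins and cellulose synthases. Without mutant1 the count was 2943 and without WT it was 2387, and leaving out OE28 gave 2310. The median difference over all tested probe sets was 0.0081, where differences are ZH11 minus Huayang on the scale log2(intensity + 16), on which changes of dim genes come out too small.

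The difference between cultivars was largely in place before the seedlings were chilled. Of the 3648 calls, 3512 (96.3%) had the same sign before cold and 1443 (39.6%) were also called there. Before cold, 1806 probe sets (5.26%) were called, 786 higher in ZH11 (2.29%) and 1020 lower (2.97%), and 79.9% of these were called the same way after cold. Across the tested probe sets the differences before and after cold correlated at r = 0.868, a description over probe sets that share lines and normalization, not over independent replicates. Among the 4-fold differences, 109 of 111 lower and 82 of 95 higher probe sets were at least 2-fold different the same way before cold. The change of the difference with cold was itself called at 35 probe sets (0.102%), at an unadjusted p below 0.05 at 1624 (4.73%), and at 153 with the line kept as a block.

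**Figure D1:**
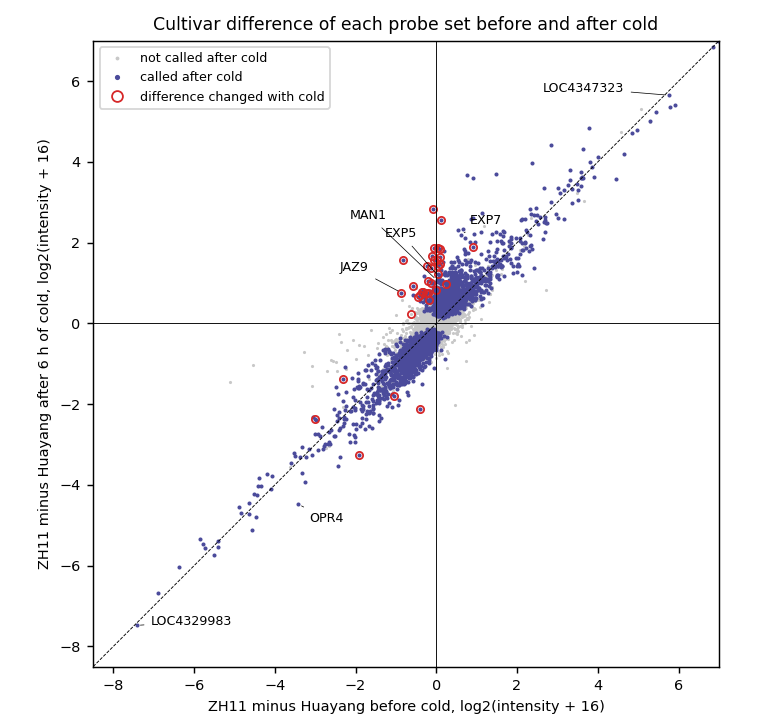
Difference of ZH11 minus Huayang for each of the 34316 tested probe sets before cold (horizontal) and after 6 h of cold (vertical), both on the log2(intensity + 16) scale, with probe sets called after cold in blue and the 35 whose difference changed with cold ringed in red. Most calls lie along the dashed line of equal difference, while most ringed probe sets lie above it near 0 on the horizontal axis.

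The largest differences were at probe sets with signal in one cultivar and little in the other. Readings at or below 73.9, the highest value of those transgene marker probe sets that never reached 100, are called dim here, and a fold against a dim group is given as a lower bound. LOC4329983 read 9.7, 8.7 and 10.6 in OE2, OE28 and CK, against 3999.4, 4790.2 and 4821.7 in mutant1, mutant2 and WT. All ZH11 arrays were dim and all Huayang arrays bright, at least 50.3-fold lower in ZH11 (log2 difference -7.48, SE 0.15, limma adjusted p = 2.38e-11), and before cold the difference was -7.42. The 4 next largest of the unnamed genes that were lower, LOC4346832, LOC4341223, LOC4334900 and LOC4350802, were at least 14.4-fold to 49.7-fold lower in ZH11. Their probe sets did not all read alike. LOC4346832 had others at -2.53 and 0.10, and LOC4350802 had others at -5.46 and 1.19, the last with 146.7, 190.7 and 171.0 in OE2, OE28 and CK and 62.6, 82.5 and 62.7 in mutant1, mutant2 and WT.

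In the other direction, LOC4347323 read 1869.2, 1715.5 and 1887.2 in the ZH11 lines in the same order, against 22.4, 20.7 and 19.7 in the Huayang lines. It was at least 20.5-fold higher in ZH11 (log2 difference 5.65, SE 0.08, adjusted p = 1.55e-12) and stood at 5.76 before cold. LOC4340994, LOC9267585, LOC4345148 and LOC4327604 followed, at least 6.15-fold to 9.72-fold higher. LOC4345148, with the largest bound of these, was not dim in every Huayang line: mutant1 read 316.0, against 12.5 in mutant2 and 11.7 in WT. It was called neither before cold (adjusted p = 0.0732) nor between CK and WT (adjusted p = 0.0625). LOC4327604 had other probe sets at 1.54 and 0.18. Over all tested probe sets, 9 stood at least 4-fold above the dim limit, on the log2(intensity + 16) scale, on all 6 ZH11 arrays of both times and were dim on all 6 Huayang arrays, and 19 did the reverse. Only 2 of the 9 but 16 of the 19 are paired with 1 gene.

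Among the genes with a published name, the largest deficits in ZH11 were of this kind. C3H2, a zinc finger protein gene, read 38.7, 35.5 and 47.5 in OE2, OE28 and CK, against 1198.7, 1419.9 and 1741.0 in mutant1, mutant2 and WT, at least 16.2-fold lower in ZH11. A second probe set of C3H2 showed no such difference (0.13, SE 0.10, adjusted p = 0.475), with 2987.0 to 4026.3 on all 6 arrays. PP2C45, a protein phosphatase gene, was at least 2.78-fold lower by 1 probe set and stood at -0.10 (adjusted p = 0.363) by another, which read 1191.7 to 1402.7.

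Genes that carry ions and metals across membranes were more often lower than higher in ZH11. Of 37 tested genes for transport of phosphate, nitrogen and potassium, 9 were lower (24.3%) and 2 higher (5.41%), against 5.85% and 4.78% of all tested probe sets, with a median of -0.13. The lists hold only genes with a published name, whereas those shares also cover probe sets with no gene. Probe sets with a published name made up 9.79% of the calls and 8.01% of those tested, so they were called somewhat more often. AMT3-2, an ammonium transporter gene, read 331.2, 321.5 and 332.5 in OE2, OE28 and CK, against 1496.7, 1849.7 and 1663.7 in mutant1, mutant2 and WT. The ZH11 arrays were all far below the Huayang arrays, a 4.67-fold lower level in ZH11 (log2 difference -2.22, SE 0.08, adjusted p = 5.51e-09). Before cold the deficit was -1.58. The high-affinity phosphate transporter gene PT4 was 2.41-fold lower (SE 0.25, adjusted p = 0.00704), and the potassium transporter gene HAK16 was 2.16-fold lower (SE 0.10, adjusted p = 2.27e-05).

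Of 47 tested genes for metal transport, nicotianamine and metallothioneins, 13 were lower in ZH11 (27.7%) and 1 higher (2.13%), with a median of -0.20, and 9 were also called lower before cold. All 14 had the same sign before cold, as had 96.3% of all calls. Root marker genes, of which NAS1 and NAS2 are also in this list, summed to 986.6 to 1714.2 in ZH11 and 1326.8 to 5593.1 in Huayang, and 0 of the 8 tested were called. Their part in the difference of the metal genes was not tested. YSL13, of the yellow stripe-like family that moves metal chelates, read 88.7, 79.2 and 61.3 in the 2 overexpressing lines and CK, against 209.3, 241.1 and 226.7 in the mutants and WT. Each ZH11 array was below each Huayang array, and the level was 2.65-fold lower (log2 difference -1.41, SE 0.16, adjusted p = 0.000154). ZIP8, a zinc transporter gene, was 2.37-fold lower (SE 0.12, adjusted p = 3.91e-05). NAAT1, whose enzyme makes the precursor of the iron chelator deoxymugineic acid, read 586.8, 465.1 and 301.7 in ZH11 and 838.5, 786.6 and 1749.2 in Huayang, with WT far above the mutants. Its difference of -1.19 (SE 0.29, adjusted p = 0.0212) lost its call without CK (-0.96, adjusted p = 0.0819), without OE28 (-1.23, adjusted p = 0.056) and without WT (-0.81, adjusted p = 0.0563). The counts for the 2 transport lists together with other lists are drawn in the bar chart of gene lists.

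**Figure D2:**
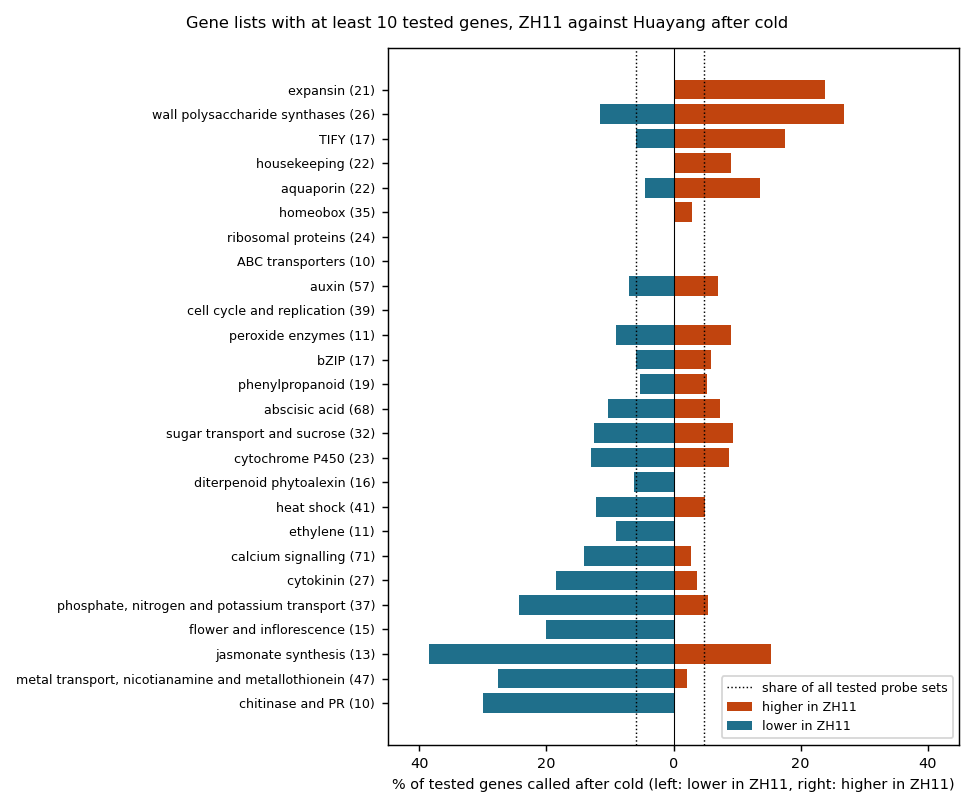
Share of the tested genes of each list that were called after cold, to the left for genes lower in ZH11 and to the right for genes higher in ZH11, with the number tested in parentheses and dotted lines at the shares of all tested probe sets (5.85% lower, 4.78% higher). Metal transport reaches 27.7% on the lower side and expansins 23.8% on the higher side, while the cell cycle, ribosomal protein and ABC transporter lists hold no call.

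NAS1 and NAS2, nicotianamine synthase genes that were looked up after their values were seen, differed between CK and WT but were not called between cultivars. NAS1 read 197.0, 46.6 and 9.8 in OE2, OE28 and CK, and 59.8, 35.1 and 1815.2 in mutant1, mutant2 and WT. The WT array alone was high, so that the cultivar difference of -1.46 was not called (SE 1.2, adjusted p = 0.532), whereas CK minus WT was -6.20 (adjusted p = 0.0116). Before cold all 3 Huayang lines were high (2735.8, 1176.0 and 2141.8, against 157.5, 27.1 and 8.3 in ZH11). NAS2 followed the same order, with CK minus WT at -4.74 (adjusted p = 0.0118).

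Several genes that loosen and build the cell wall were higher in ZH11 after cold. Expansins, proteins that loosen the wall during growth, had 5 of 21 tested members higher (23.8%) and 0 lower, with a median of 0.33. Over all tested probe sets, 4.78% were higher and 5.85% lower. At an unadjusted p below 0.05 the count was 11 of 21, against 23.6% of all tested probe sets. EXP7 read 420.2, 582.9 and 754.7 in OE2, OE28 and CK, against 189.7, 105.2 and 72.5 in mutant1, mutant2 and WT. CK was the highest array and WT the lowest, with the overexpressing lines and the mutants between them, and the groups did not overlap. The level was 4.59-fold higher in ZH11 (log2 difference 2.20, SE 0.34, adjusted p = 0.00142). A second probe set of EXP7 read 27.2 to 35.8 on all 6 arrays and stood at 0.04 (adjusted p = 0.834), within the dim range. EXP5 read 135.6, 135.8 and 172.4 in ZH11 and 71.3, 68.6 and 45.5 in Huayang, at least 1.91-fold higher (log2 difference 1.16, SE 0.16, adjusted p = 0.000581).

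Before cold the same wall genes were closer together. EXP7 stood at 0.61 (adjusted p = 0.434) and EXP5 at 0.06 (adjusted p = 0.929), and the change of the difference with cold was 1.59 for EXP7 (adjusted p = 0.696) and 1.10 for EXP5 (adjusted p = 0.167), not called for either. MAN1, an endo-mannanase gene, read 642.1, 818.5 and 819.0 in OE2, OE28 and CK, against 409.5, 421.4 and 251.2 in mutant1, mutant2 and WT, 2.10-fold higher in ZH11 after cold (SE 0.20, adjusted p = 0.0053), and stood at 0.01 before it. Its change with cold was 1.06 (adjusted p = 0.514), also not called. Cel9E, an endoglucanase gene, was at least 1.62-fold higher after cold (log2 difference 1.52, adjusted p = 0.00523) and stood at 0.35 before it (adjusted p = 0.66).

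Of 26 tested synthases of wall polysaccharides, 7 were higher (26.9%) and 3 lower (11.5%), against 4.78% and 5.85% of all tested probe sets. CESA6, a cellulose synthase gene, read 1965.5, 2206.6 and 2187.7 in OE2, OE28 and CK, against 1219.7, 1365.5 and 1051.3 in mutant1, mutant2 and WT, 1.73-fold higher in ZH11 (SE 0.09, adjusted p = 0.000157). CESA7, a cellulose synthase gene of the secondary wall, was 1.31-fold higher (adjusted p = 0.00316). CSLA5, a cellulose synthase-like gene, went the other way, 1.59-fold lower (adjusted p = 0.000328). Secondary wall genes, a set used as markers of xylem and fibres, had 5 of 7 higher (71.4%) and 1 lower. This set shares genes such as CESA7 with the synthases, so the counts partly repeat the same calls. Its higher calls include BC1 (LOC4347540), dim on all 6 arrays (14.3 to 31.4). That call was lost without CK, OE2, OE28, WT or mutant2. The summed intensity of the set was 9454.3 to 9841.4 in ZH11 and 8002.6 to 8934.3 in Huayang. Of these marker genes, 2 were dim on all 6 arrays. Whether a different share of such cells moved with the other wall genes was not tested.

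**Figure D3:**
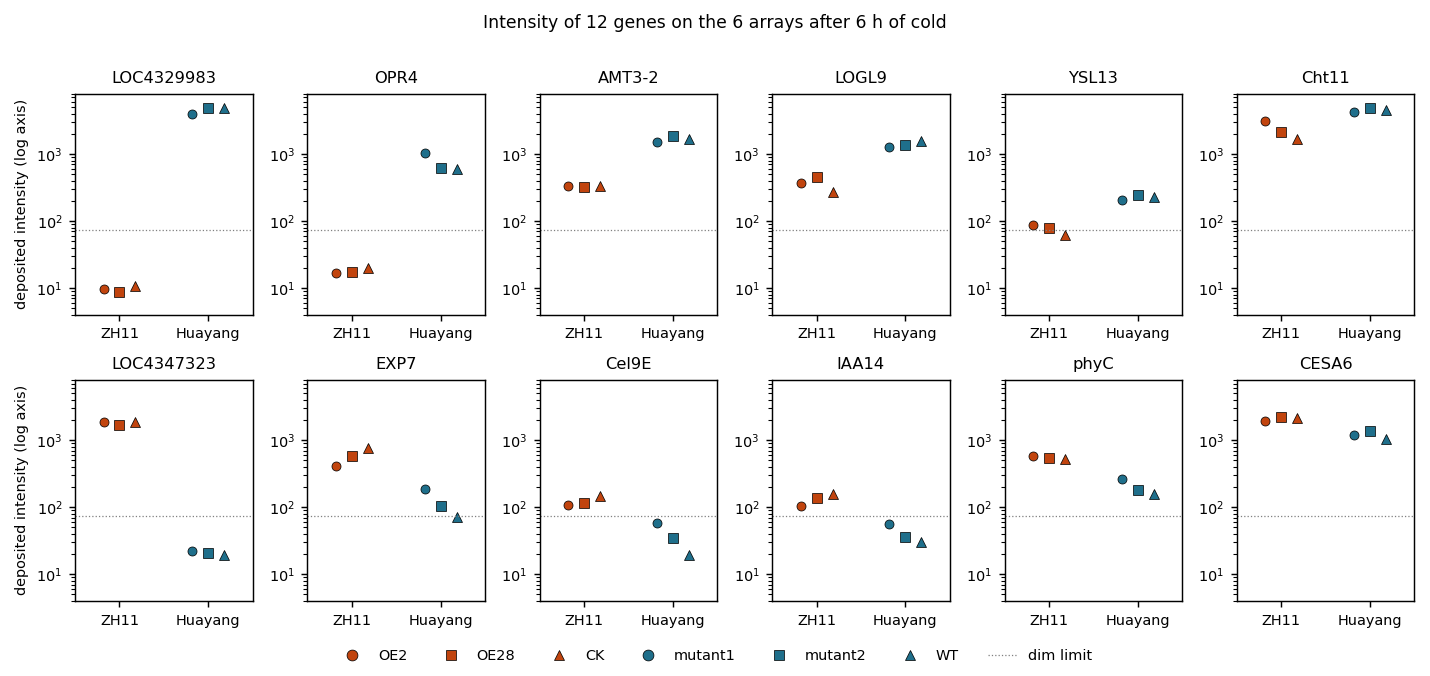
Deposited intensity of 12 genes on the 6 arrays after cold, on a log axis, with ZH11 lines at the left of each panel and Huayang lines at the right; the marker shape gives the line and the dotted line the dim limit of 73.9. LOC4329983 and OPR4 are dim on all ZH11 arrays and LOC4347323 on all Huayang arrays, while for EXP7, Cel9E and IAA14 the CK array is the highest and the WT array the lowest.

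Among the 15 published genes with the largest increases in ZH11, CK was the highest of the ZH11 arrays at 11 and WT the lowest of the Huayang arrays at 11, and mutant1 was the highest Huayang array at 13. Before cold, 3 of these 15 genes were called, and 13 of the 15 with the largest decreases, against 5.26% of all tested probe sets. These genes were picked by the size of the difference after cold in the same lines. IAA14, an auxin response repressor gene, read 104.4, 138.1 and 159.9 in OE2, OE28 and CK, against 57.2, 36.3 and 30.4 in mutant1, mutant2 and WT. All Huayang arrays were dim and below the ZH11 arrays, at least 1.73-fold higher in ZH11 (log2 difference 1.48, SE 0.20, adjusted p = 0.000454). The auxin list as a whole had 4 of 57 higher and 4 lower (7.02% each way), against 4.78% and 5.85% of all tested probe sets. GH3.7, of a family that conjugates hormones to amino acids, was 1.95-fold higher (SE 0.14, adjusted p = 0.000703), whereas SAUR39, an early auxin gene, was 2.19-fold lower (SE 0.19, adjusted p = 0.00247).

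The germin-like genes GER2 and GER3, whose proteins lie in the wall and act in defence, were higher in ZH11. GER2 read 272.8, 327.2 and 226.5 in OE2, OE28 and CK, against 141.0, 123.6 and 123.2 in mutant1, mutant2 and WT, 2.04-fold higher (SE 0.20, adjusted p = 0.00613). GER3 was at least 1.58-fold higher (log2 difference 1.36, adjusted p = 0.00665), and between CK and WT it was 0.86 (adjusted p = 0.261). SUS1, which splits sucrose for growing cells, was higher by both of its probe sets, 1.88-fold (adjusted p = 0.00308) and 2.07-fold (adjusted p = 0.0033). AP25, an aspartic protease gene, and CYCP4-1, a cyclin gene, were 2.10-fold and 2.11-fold higher. PhyC, the gene of the photoreceptor phytochrome C, read 573.5, 553.3 and 521.5 in OE2, OE28 and CK, against 260.0, 181.2 and 158.2 in mutant1, mutant2 and WT. It was 2.68-fold higher in ZH11 (log2 difference 1.42, SE 0.24, adjusted p = 0.00241) and, unlike most of the growth genes above, was called before cold too, at 1.59 (adjusted p = 0.00176).

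Enzymes of jasmonate and oxylipin synthesis were called in both directions, 5 of 13 lower in ZH11 (38.5%) and 2 higher (15.4%). The shares of all tested probe sets were 5.85% and 4.78%. OPR4, of the oxophytodienoate reductase family, read 16.8, 17.4 and 20 in OE2, OE28 and CK, against 1029.6, 626.7 and 591.4 in mutant1, mutant2 and WT. ZH11 arrays were dim throughout, at least 8.35-fold lower after cold (log2 difference -4.48, SE 0.21, adjusted p = 4.56e-08), and the gene stood at -3.42 before cold. Of the same list, OPR7 (-0.046, adjusted p = 0.673) and aoc (0.185, adjusted p = 0.281) were not called. The lipoxygenase gene CM-LOX2 was lower by both of its probe sets, 2.83-fold (adjusted p = 0.00228) and, by the one that was dim in ZH11, at least 1.35-fold (adjusted p = 0.000106), and CM-LOX1 was 2.18-fold lower (SE 0.21, adjusted p = 0.00424). AOS1, a gene of allene oxide synthase, which commits the pathway to jasmonate, read 321.6, 376.0 and 308.7 in ZH11 and 192.4, 162.8 and 162.5 in Huayang. It was 1.90-fold higher in ZH11 (SE 0.10, adjusted p = 0.000111), with 0.38 before cold (adjusted p = 0.0566). AOS2, a second and brighter gene of this enzyme, leaned the other way and was not called (-0.53, SE 0.18, adjusted p = 0.0975). It read 668.0, 900.1 and 768.8 in ZH11 and 1180.1, 982.7 and 1300.3 in Huayang.

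Among the TIFY genes, which include the JAZ repressors of jasmonate signalling, 3 of 17 were higher in ZH11 after cold (17.6%) and 1 lower. All tested probe sets had 4.78% higher and 5.85% lower. JAZ9 read 5222.6, 5352.3 and 5862.7 in OE2, OE28 and CK, against 3503.0, 2668.1 and 3541.5 in mutant1, mutant2 and WT. Before cold it read 52.0, 87.4 and 43.2 in the ZH11 lines and 140.0, 122.6 and 110.1 in the Huayang lines, so the order of the cultivars was opposite at the 2 times, without overlap at either. The difference was 0.76 after cold (SE 0.18, adjusted p = 0.0156) and -0.87 before it (adjusted p = 0.0119), and its change of 1.63 was called (SE 0.25, adjusted p = 0.0327). OE2 and CK were dim before cold, and with their readings raised to the dim limit the earlier difference was -0.53. The call after cold was lost without CK (0.71, adjusted p = 0.0561) and without mutant2 (0.62, adjusted p = 0.0571). The change kept its call without the OE28 or the CK array before cold and lost it without any other, with adjusted p of 0.0573 to 0.111 in those 10 runs. It was also lost in the model of 8 group means (1.68, adjusted p = 0.0662) and with a pseudocount of 1 (1.81, adjusted p = 0.06). JAZ13 read 5919.0, 6080.9 and 6754.1 in ZH11 and 3983.2, 3576.3 and 3955.6 in Huayang, 1.61-fold higher (adjusted p = 0.0236), a call lost without any array but OE2, with adjusted p of 0.0558 to 0.0786 and differences of 0.63 to 0.72. The remaining higher call, JAZ10, was 1.24-fold higher (adjusted p = 0.023). It was lost without CK, OE28, mutant1 or mutant2 (0.24 to 0.32, adjusted p of 0.051 to 0.0845). A second JAZ10 probe set was not called (0.26, adjusted p = 0.191).

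**Figure D4:**
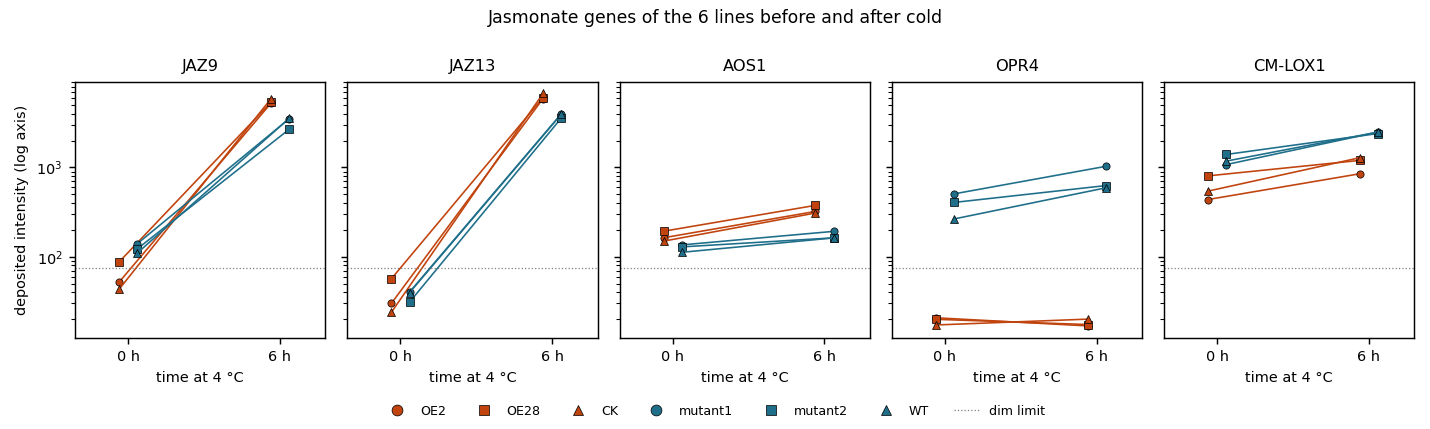
Deposited intensity of 5 jasmonate genes in the 6 lines before cold and after 6 h at 4 °C, on a log axis, with ZH11 lines in orange, drawn slightly to the left, and Huayang lines in blue. The JAZ9 lines of the cultivars cross between the times, OPR4 stays below the dim limit of 73.9 in ZH11 at both times, and CM-LOX1 is lower in ZH11 at both.

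Of 10 tested genes for chitinases and pathogenesis-related proteins, 3, all chitinases, which digest fungal walls, were lower in ZH11 (30.0%) and 0 higher, with a median of -0.81. Of all tested probe sets, 5.85% were lower and 4.78% higher. Cht11 read 3085.6, 2128.1 and 1670.0 in OE2, OE28 and CK, against 4184.0, 4859.3 and 4560.7 in mutant1, mutant2 and WT, 2.03-fold lower in ZH11 (SE 0.20, adjusted p = 0.00717). CK was the lowest array, and the groups did not overlap. CH16, listed as Cht1, was 1.96-fold lower (adjusted p = 0.0171), a call lost without CK (-0.72, adjusted p = 0.0546), without OE28 (-0.99, adjusted p = 0.0523), without WT (-0.92, adjusted p = 0.066) and without mutant1 (-0.90, adjusted p = 0.0614). The remaining call, CH6, listed as Cht3, had arrays that overlapped between the cultivars (-1.05, adjusted p = 0.0498). It was lost without the same 4 arrays (-0.83 to -0.97, adjusted p of 0.137 to 0.17) and with the line as a block (adjusted p = 0.0525). WRKY62, a repressor of defence genes, was at least 1.63-fold lower (log2 difference -1.85, SE 0.20, adjusted p = 7.66e-05). CYP76M7, of diterpenoid phytoalexin synthesis, read 88.5, 87.8 and 92.1 in OE2, OE28 and CK, against 291.7, 342.3 and 267.7 in mutant1, mutant2 and WT, 2.98-fold lower in ZH11 (SE 0.19, adjusted p = 0.000189). It was the 1 called gene of the 16 in its list, whose median was -0.36.

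Cytokinin genes had 5 of 27 tested lower in ZH11 (18.5%) and 1 higher. For this list and those that follow, the shares of all tested probe sets were 5.85% lower and 4.78% higher. LOGL9, of the family that releases active cytokinin, read 370.2, 455.1 and 275.4 in OE2, OE28 and CK, against 1276.6, 1342.4 and 1544.7 in mutant1, mutant2 and WT. Again CK was the lowest and WT the highest array, and the level was 3.57-fold lower (log2 difference -1.84, SE 0.16, adjusted p = 1.64e-05). RR6, a response regulator gene, was 1.51-fold higher (SE 0.13, adjusted p = 0.0106), a call lost without WT (0.50, adjusted p = 0.051). Calcium sensors and calcium-dependent kinases had 10 of 71 lower (14.1%) and 2 higher (2.82%). CML4, a calmodulin-like gene, was 1.90-fold lower (SE 0.13, adjusted p = 0.000703), and CDPK5, a calcium-dependent kinase gene, was 1.57-fold lower (SE 0.08, adjusted p = 0.000175). Abscisic acid signalling had 5 of 68 higher (7.35%) and 7 lower (10.3%), and heat shock genes had 2 of 41 higher (4.88%) and 5 lower (12.2%).

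Single members of other families were also called. BIMK2, a MAP kinase gene, read 128.6, 111.8 and 94.1 in OE2, OE28 and CK, against 325.7, 344.4 and 347.7 in mutant1, mutant2 and WT, 2.77-fold lower in ZH11 (SE 0.15, adjusted p = 7.39e-05). Nrx1-1, a nucleoredoxin gene, was 3.13-fold lower (SE 0.16, adjusted p = 3.49e-05). PIP1-3, an aquaporin gene of the plasma membrane, was 2.30-fold lower (SE 0.15, adjusted p = 0.000342) and PIP2-6, another, was 1.61-fold higher (SE 0.08, adjusted p = 0.000197). The aquaporin list had 3 of 22 higher (13.6%) and 1 lower (4.55%), against 4.78% and 5.85% of all tested probe sets. MST3, a monosaccharide transporter gene, was 2.09-fold lower (SE 0.14, adjusted p = 0.000444). HSP16.0, a small heat shock protein gene, was at least 1.17-fold lower (log2 difference -1.50, SE 0.23, adjusted p = 0.00139). Rictpi2, a triosephosphate isomerase gene, was 2.65-fold lower by 1 probe set and stood at 0.24 (adjusted p = 0.00522) by another, so that its direction depends on the probe set.

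The DREB1 cold regulators were not called after cold. Of the 5 DREB1 genes tested, 0 were called by limma, and 0 had an unadjusted p below 0.05, while 1 was called higher in ZH11 before cold. CBF3, listed as DREB1A, read 6883.0, 6812.2 and 6150.9 in OE2, OE28 and CK, and 6334.0, 5052.3 and 5923.3 in mutant1, mutant2 and WT. The cultivars overlapped, with a difference of 0.21 (SE 0.15, adjusted p = 0.461), although each line had read 29.0 to 84.8 before cold. Other lists with 0 called by limma were the cell cycle (6 of 39 at an unadjusted p below 0.05), ribosomal proteins (1 of 24), ABC transporters (1 of 10), starch synthesis (0 of 8), starch breakdown (1 of 4), light harvesting (2 of 6), root genes (0 of 8) and epidermis genes (1 of 8), NAC factors (1 of 6), glutathione transferases (2 of 6), histones (1 of 5) and disease resistance genes (1 of 4). Over all tested probe sets the share at an unadjusted p below 0.05 was 23.6%. A p that misses the threshold does not show that these genes were equal in the cultivars. The dividing-cell genes summed to 6391.4 to 6712.9 in ZH11 and 6506.6 to 7183.8 in Huayang.

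Where the difference itself changed with cold, it mostly moved toward higher levels in ZH11. Of the 35 probe sets called, the change was positive at 32 (0.0933%) and negative at 3 (0.00874%), and 34 were also called after cold. LOC4336005 read 437.4, 426.9 and 578.0 in OE2, OE28 and CK after cold, against 69.3, 51.6 and 48.4 in mutant1, mutant2 and WT. Before cold all 6 lines had read 36.2 to 42.4, all dim, as were the Huayang lines after cold. After cold the level was at least 5.69-fold higher in ZH11, and the fitted change of the difference was called (adjusted p = 4.39e-05). LOC4346931 read 590.1, 701.1 and 856.5 in ZH11 after cold and 115.7, 95.8 and 114.1 in Huayang, and the difference changed by 2.44 (SE 0.29, adjusted p = 0.0075), with all 6 lines dim before cold. LOC4335417 changed by 2.38 (SE 0.23, adjusted p = 0.00189) on readings that were dim in all 6 lines before cold (13.7 to 46.6), so that the size of the change has no firm basis there. Besides JAZ9 only GRXS3, a glutaredoxin gene, has a published name, and it read 42.7, 66.0 and 64.8 in ZH11 and 27.3, 28.4 and 28.1 in Huayang, below the dim limit on every array. Its call was lost in the model of 8 group means (1.07, adjusted p = 0.106) and in 10 of the 12 runs without 1 array (adjusted p of 0.0748 to 0.107). LOC4334993 changed the other way, by -1.34 (SE 0.21, adjusted p = 0.0385), with 70.3, 61.6 and 77.6 in ZH11 and 677.7, 890.3 and 887.5 in Huayang after cold.

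Between CK and WT, the lines that by their labels neither overexpress OsMYB30 nor carry its mutation, 2509 probe sets were called (7.31%), 1279 higher (3.73%) and 1230 lower (3.58%) in CK. The spread was taken from the other lines because each side is 1 array. At 1352 probe sets (3.94%) CK and WT stood at least 2-fold apart, a count with no test. The marker RPTR-Os-K01193-1_at, at 64.3 in CK and 3821.8 in WT after cold and at 18.6 and 2658.5 before it, was bright in WT and dim in CK. The marker RPTR-Os-A00196-1_s_at was dim in both, at 31.7 in CK and 31.0 in WT after cold. OsMYB30 could not be identified among the probe sets, so that the pair is without such changes by its labels alone. Of the 3648 calls between cultivars, 1669 (45.8%) were called between CK and WT in the same direction, which is 66.5% of the CK and WT calls. Both arrays also entered the cultivar comparison, so this overlap and the shared signs are no independent check. CK minus WT was -2.21 for AMT3-2, -1.73 for YSL13 and -4.19 for OPR4, all called. For EXP7 it was 3.14, for Cel9E 2.34, for IAA14 2.04 and for EXP5 1.73, each larger than the difference between cultivars. It was smaller for PT4 (-0.66, adjusted p = 0.149), GER2 (0.82, adjusted p = 0.12), CM-LOX1 (-0.94, adjusted p = 0.236) and JAZ9 (0.69, adjusted p = 0.182), none of them called, and JAZ13 (0.72, adjusted p = 0.148) was not called either. None of the TIFY calls between cultivars was called between CK and WT. Most calls of the expansin, wall polysaccharide synthase, calcium and abscisic acid lists were not called there either. Among these were CSLA5, with CK minus WT at -0.63, and CDPK5, at -0.55. By contrast, the chitinase calls and most calls of the metal transport list were also called between CK and WT.

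The cultivars were not uniform line by line. At the 229 probe sets with a 4-fold difference between cultivar medians after cold, mutant1 lay nearer to the ZH11 median at 24 (10.5%), while the other 5 arrays lay nearer to the other cultivar at 1 to 8. Before cold mutant1 did so at 47 of 223 (21.1%), and 22 of its 24 were nearer at both times. LOC4352358 read 1604.7, 2050.7 and 2085.8 in OE2, OE28 and CK, against 626.0, 8.9 and 6.8 in mutant1, mutant2 and WT. Mutant1 was bright where both other Huayang lines were dim, and before cold it read 1162.9. LOC4345418 read 1497.2, 1091.4 and 968.9 in ZH11, against 302.5, 15 and 17.4 in mutant1, mutant2 and WT. Of the 24 probe sets, 22 were brighter in ZH11, and there mutant1 read 20.9% to 57.0% of the ZH11 median on the linear scale, with a median of 30.3%. These probe sets were chosen by where mutant1 lies, so these shares are a description.

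**Figure D5:**
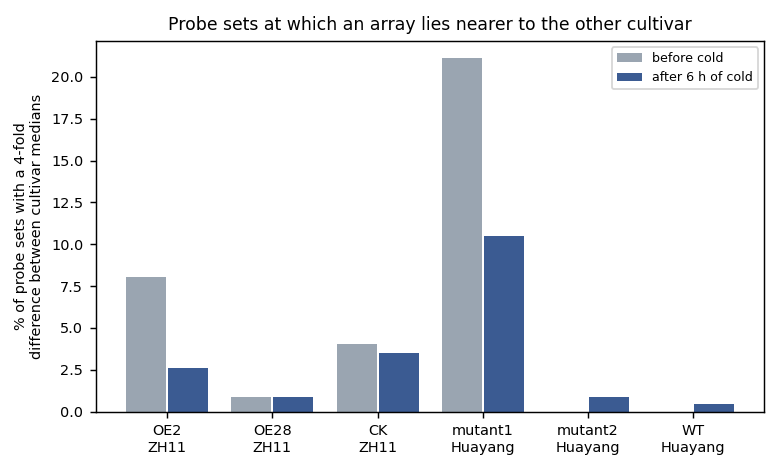
Share of the probe sets with a 4-fold difference between cultivar medians (223 before cold, 229 after) at which each array lies nearer to the median of the other cultivar, with a bar per line for each time. Mutant1 stands at 21.1% before cold and 10.5% after, and the other arrays at 8.07% or less.

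JAZ2, looked up after its values were seen, parted lines inside both cultivars. It read 4.1, 208.5 and 4.7 in OE2, OE28 and CK, and 17.7, 452.2 and 421.2 in mutant1, mutant2 and WT after cold. The OE28 line was bright among dim ZH11 lines and mutant1 dim among bright Huayang lines, at both times, and the cultivar difference of -2.07 was not called (SE 1.5, adjusted p = 0.451).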

How the data were processed

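Per the labels, biotin-labelled RNA of each sample went onto 1 GeneChip array. The values are probe set intensity on a linear scale, as deposited by the authors, from 2.9 to 23434.8; their summary and normalization method is not given in the sources used here. Of 57381 probe sets, 187 controls and transgene markers were left out. Log2(intensity + 16) was quantile normalized, since quartiles differed between arrays by up to 0.237 (limit 0.2). A filter kept the 34316 of 57194 whose mean reached the 40th percentile. The number of arrays limits the precision.

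Fits used limma 3.58.1 in R 4.3.3 (lmFit, then eBayes with a trend), with Benjamini-Hochberg adjustment over all tested probe sets and calls at an adjusted p below 0.05. All 12 arrays entered a model of 4 means, cultivar by time, with 8 residual degrees of freedom. CK against WT came from a model of 8 group means with 4, which assumes that each single array varies like the overexpressing and mutant lines. Each line gave an array at both times, which pairs them. Their deviations from group means correlated at 0.517 in the overexpressing lines and 0.429 in the mutants, and line was tried as a random block (correlation 0.421). The fit was tested on simulated data. For a bound, readings under the dim limit were raised to it.

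GEO's platform annotation gave 22436 probe sets 1 gene, 95 several and 34663 none. Published names came from RefSeq synonyms (assembly ASM3414082v1, used for names and gene order) for 2457 genes. A gene entered a list by its brightest tested probe set. Named are the 15 largest differences each way among genes with a published name and the 5 among those without, with arrays that did not overlap and the same sign in CK minus WT. Up to 3 of the largest called genes of each list and the published genes whose change with cold was called were added. Unnamed genes given for the change with cold or for single lines, and list members described as not called, were chosen after their values were seen. The members and lists were chosen with earlier results of these data known.

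Tried in turn were unscaled and median-centred arrays, no filter or one at the 60th percentile, pseudocounts of 1 and 64, a mean over the probe sets of a gene, eBayes without its trend or made robust, a 2-fold minimum, 8 group means, the line block, only the 6 cold arrays, other probe sets of a gene, and the loss of any 1 array.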

Additional observations from a re-analysis of the deposited data

Results flagged for a closer look

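In GRXS3 the cultivar difference after cold minus that before cold was 1.02 on the log2 scale (SE 0.15, limma adjusted p = 0.0296), with the ZH11 lines above the Huayang lines after cold and below them before it, all readings being dim. That call was lost in 10 of the 12 runs without 1 array (adjusted p of 0.0748 to 0.107). In JAZ9 the same change was 1.63 (SE 0.25, adjusted p = 0.0327), again with opposite order at the 2 times. The transgene marker probe set RPTR-Os-K01193-1_at, outside the tested probe sets, read 3821.8 in the Huayang wild type after cold, against 64.3 in the ZH11 control. The cause was not tested.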

How the results depend on the processing

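The count of 3648 after cold was 754 with a 2-fold minimum and 2310 to 3381 with each array left out in turn, lowest without OE28 (2310) and WT (2387). Under the other 12 alternatives it lay between 2895 and 4773. A 2-fold minimum gave 1095 between CK and WT and 526 before cold, where leaving out 1 array gave 1056 (without mutant2) to 1964. CK against WT could not be refitted without either array. The count of 35 for the change with cold was 153 with line as a replicate block, 116 higher and 37 lower, and 13 (without OE28 after cold) to 54 (without CK before cold) with 1 array left out. The block ended the calls after cold of 5 of 99 named probe sets (adjusted p of 0.0525 to 0.0743). Leaving out an array ended 13 (OE2), 25 (OE28), 23 (CK), 17 (mutant1), 15 (mutant2) and 26 (WT) of them. Another probe set of the gene had the opposite sign for LOC4346832 (0.10), LOC4350802 (1.19), C3H2 (0.13) and Rictpi2 (0.24). Differences between dim readings have no reliable size. The causes were not tested.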

Other observations

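On the gene order of the RefSeq assembly, 26 of 151 genes called at least 2-fold higher in ZH11 had an adjacent gene of the same kind (17.2%), against 1.64% of all measured genes. Of 175 genes called at least 2-fold lower, 33 had one (18.9%), against 1.79%. In 1 run of 3 genes, LOC4329982 stood at -2.36, LOC4329983 at -7.48 and LOC9269584 at -2.39 after cold. In another, LOC4327840 stood at 4.19, LOC4327841 at 1.89 and LOC4327842 at 1.25. These counts are a description, and whether neighbouring genes share probe sequence was not tested.

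At LOC4332568 the overexpressing lines stood apart from all others, and the ZH11 control read like Huayang. OE2 and OE28 read 11834.0 and 11026.1 after cold and CK read 592.1, against 600.6, 663.5 and 802.6 in mutant1, mutant2 and WT. LOC4330027 read 3188.9, 3327.6 and 1151.2 in OE2, OE28 and CK after cold, against 309.5, 36.9 and 1301.4 in mutant1, mutant2 and WT. Before cold it read 2776.8, 2570.4 and 48.4 in the ZH11 lines and 44.0, 30.2 and 64.1 in the Huayang lines. Whether LOC4330027 is OsMYB30 was not tested. Both genes were picked after their values were seen.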
